A study of Mus musculus with 60 samples.

Results

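The 9 genes described here encode Fc gamma receptors and the paired Ig-like receptors of myeloid cells, and they were taken by symbol from the 770 genes of a mouse neuroinflammation panel (Fcgr1, Fcgr2b, Fcgr3, Fcer1g, Lair1, Lilrb4a, Pilra, Pilrb1 and Cd33, all 9 of which were on the panel and none of which was dropped by a filter). The study asked whether the time of day at which tissue was taken altered what was seen in the brains of mice with a mammary tumor. Female Balb/C mice, 13 weeks old at collection, were injected in both inguinal mammary glands either with 67NR cells in DMEM (tumor) or with DMEM alone (vehicle), were kept in individual cages, and were perfused on day 25 after injection. 67NR cells form tumors that stay at the site of injection, and as one line they stand for one tumor of origin. Collection was at zeitgeber time 19 (mid-dark, when mice are active) or zeitgeber time 7 (mid-light, when they rest). The mice assayed formed 4 groups of 5, and every one of them gave hippocampus, hypothalamus and brain stem. According to the study's methods, more mice were injected than were assayed, and the assayed samples had passed a check of RNA quality. Values were analysed for 56 of 60 samples, and the 4 samples with none, all of vehicle mice and left out by the submitters as outliers of the raw data, were not analysed here. Of the 12 groups of region, tumor and time of day, 9 held 5 samples, the vehicle groups of hypothalamus held 3 at mid-dark and 4 at mid-light, and the vehicle mid-dark group of brain stem held 4.

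Fc gamma receptors bind the constant part of IgG on immune complexes. Fcgr1 is the high-affinity receptor and Fcgr3 a low-affinity receptor, and both signal through the shared gamma chain Fcer1g, whose cytoplasmic tail carries an activating motif (ITAM) that recruits the kinase Syk. Fcgr2b binds the same complexes but carries an inhibitory motif (ITIM), which recruits phosphatases that oppose the kinases, so the balance between activating and inhibitory Fc receptors sets how a macrophage answers IgG. The paired receptors follow the same logic. Lair1 binds collagen and inhibits, Lilrb4a is an inhibitory leukocyte Ig-like receptor, Pilra is an inhibitory and Pilrb1 an activating member of a pair that recognizes O-glycosylated proteins, and Cd33 is a sialic acid-binding lectin (Siglec). In the healthy brain these genes are expressed mainly by microglia, the resident macrophages, and by macrophages of the meninges and vessels. The panel read total RNA of dissected tissue, in which a lower number of cells of a type and less RNA per cell cannot be told apart. Values are log2 expression after background subtraction and normalization, so a difference of 1 is a doubling, and the level of a gene is set only against the same gene in other samples because each gene has its own probe.

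Promoter sequences are shown for the 3 genes that differed between mid-dark and mid-light, and for stretches that members had in common. RefSeq (build GRCm38.p6, strain C57BL/6J, which is not the strain of these mice) gave a promoter window for 8 of the 9 genes, and none was found for Lilrb4a. In the 250 bases before the start, the search covered GAGGAA (the core bound by PU.1, a transcription factor of the macrophage lineage), AGGTCA (the half-site of nuclear receptors, among them the clock factors of the ROR and REV-ERB families) and CACGTG (the E-box), on both strands. The matches are in capitals.

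Lair1, chr7:4063205-4063454, minus strand: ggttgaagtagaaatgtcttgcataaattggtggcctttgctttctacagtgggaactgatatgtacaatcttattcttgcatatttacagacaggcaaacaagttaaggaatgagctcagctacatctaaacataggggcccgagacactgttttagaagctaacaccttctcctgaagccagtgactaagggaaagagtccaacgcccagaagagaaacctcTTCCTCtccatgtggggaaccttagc

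Fcgr2b, chr1:170976072-170976321, minus strand: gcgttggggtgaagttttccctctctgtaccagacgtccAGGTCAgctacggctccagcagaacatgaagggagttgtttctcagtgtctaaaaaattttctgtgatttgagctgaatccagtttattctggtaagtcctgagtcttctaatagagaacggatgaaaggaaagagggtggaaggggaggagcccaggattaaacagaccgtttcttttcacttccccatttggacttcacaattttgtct

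Cd33, chr7:43533172-43533421, minus strand: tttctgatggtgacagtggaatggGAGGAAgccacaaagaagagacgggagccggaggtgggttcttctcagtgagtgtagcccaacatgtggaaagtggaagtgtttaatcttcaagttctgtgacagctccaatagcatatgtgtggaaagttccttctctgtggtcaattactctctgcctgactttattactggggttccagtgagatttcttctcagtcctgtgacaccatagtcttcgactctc

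GAGGAA was present in Lair1 (its other strand, beginning 26 bases before the start), in Cd33 (226 bases before the start), and in Fcgr1, Fcgr3 and Pilra, which made 5 of 8 genes, while 23.3% of all 32851 promoter windows held it. AGGTCA was present in Fcgr2b alone, 211 bases before the start, and in 14% of all windows. CACGTG was found in no member and in 6.02% of all windows. The longest stretch identical between windows of different members was 86 bases, in Pilra and Pilrb1, which lie side by side on chromosome 5 with no listed gene between their starts.

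Pilra and Pilrb1, shared stretch: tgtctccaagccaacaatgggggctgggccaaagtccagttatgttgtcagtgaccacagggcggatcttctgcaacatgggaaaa

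Fcgr1, on chromosome 3, and Fcgr3, on chromosome 1, had a run of 14 bases in common that holds GAGGAA on its other strand, and it lay 59 to 46 bases before the start in Fcgr1 and 19 to 6 bases before a start listed for Fcgr3.

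Fcgr1 and Fcgr3, shared stretch: ttccttcctctttt

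Fcgr2b, Fcgr3 and Fcer1g lie in the same stretch of chromosome 1, where Fcgr4 is the only protein-coding gene between Fcgr2b and Fcgr3. Near-identical copies limit the reading of some probes, since the probe sequences were not used here and Pilra may share sequence with Pilrb1, and Fcgr2b with Fcgr3.

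The samples first sorted by region as their labels said. The 5 markers of forebrain excitatory neurons were all higher in hippocampus than in either other region, both Dlx genes were higher in hypothalamus than in hippocampus and brain stem, and the 4 myelin genes were highest in brain stem. Sample medians lay between 8.07 and 8.09, as quantile normalization sets them. RNA purity is judged by ratios of ultraviolet absorbance. The first, called the absorbance ratio here, was under 1.8 in 5 of 19 brain stem samples, 4 of them from tumor mice. It was under 1.8 in 1 of 20 hippocampus samples and in 0 of 17 hypothalamus samples. In brain stem it was under 1.8 in 3 of 5 tumor and 0 of 4 vehicle samples at mid-dark. At mid-light it was so in 1 of 5 tumor and 1 of 5 vehicle samples. Purity by this ratio thus moved with the tumor in brain stem at mid-dark. Its part in the results was not tested beyond leaving those samples out. A second absorbance ratio was lowest in hypothalamus, at 0.44 in a tumor sample of mid-light and 1.14 in a tumor sample of mid-dark. It was 1.76 or more in vehicle hypothalamus, 1.44 or more in brain stem and 2.26 or more in hippocampus. No sample was left out by the second ratio, and its part in the results was not tested.

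The activating Fc receptors, their gamma chain and Cd33 were higher in hippocampus than in hypothalamus and brain stem, whereas the inhibitory Fcgr2b was highest in hypothalamus. The mean log2 value of Fcgr1 was 7.13 ± 0.17 (SD, n = 20) in hippocampus, against 6.84 ± 0.15 (n = 17) for hypothalamus and 6.83 ± 0.16 (n = 19) for brain stem. Fcgr3 gave 7.58 ± 0.17, 7.25 ± 0.20 and 7.25 ± 0.21 in the same order. Fcer1g gave 7.75 ± 0.14, 7.49 ± 0.13 and 7.45 ± 0.15. These 3 genes therefore shared an order in which hippocampus stood apart by 1.20- to 1.25-fold and the other regions did not differ beyond their spread, with hypothalamus minus brain stem between -0.01 and 0.03 on the log2 scale. Cd33 was higher in hippocampus (6.57 ± 0.23) than in hypothalamus (6.24 ± 0.33) and brain stem (6.09 ± 0.16). Fcgr2b was lower in hippocampus (7.31 ± 0.22) than in hypothalamus (7.53 ± 0.25), with brain stem between them (7.38 ± 0.22). Lair1 had close means in the 3 regions (7.04 ± 0.23, 6.92 ± 0.22 and 6.95 ± 0.19). So did Lilrb4a (5.56 ± 0.37, 5.63 ± 0.29 and 5.71 ± 0.22), Pilra (4.26 ± 0.42, 4.26 ± 0.23 and 4.38 ± 0.24) and Pilrb1 (3.45 ± 0.55, 3.40 ± 0.68 and 3.36 ± 0.57). Pilra and Pilrb1 were read at low levels, with means under 5 over all samples. Only 9.35% of panel genes had a lower mean than Pilra, and 2.08% a lower mean than Pilrb1. All ranges overlapped between regions, as the plot of samples by region shows.

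**Figure D1:**
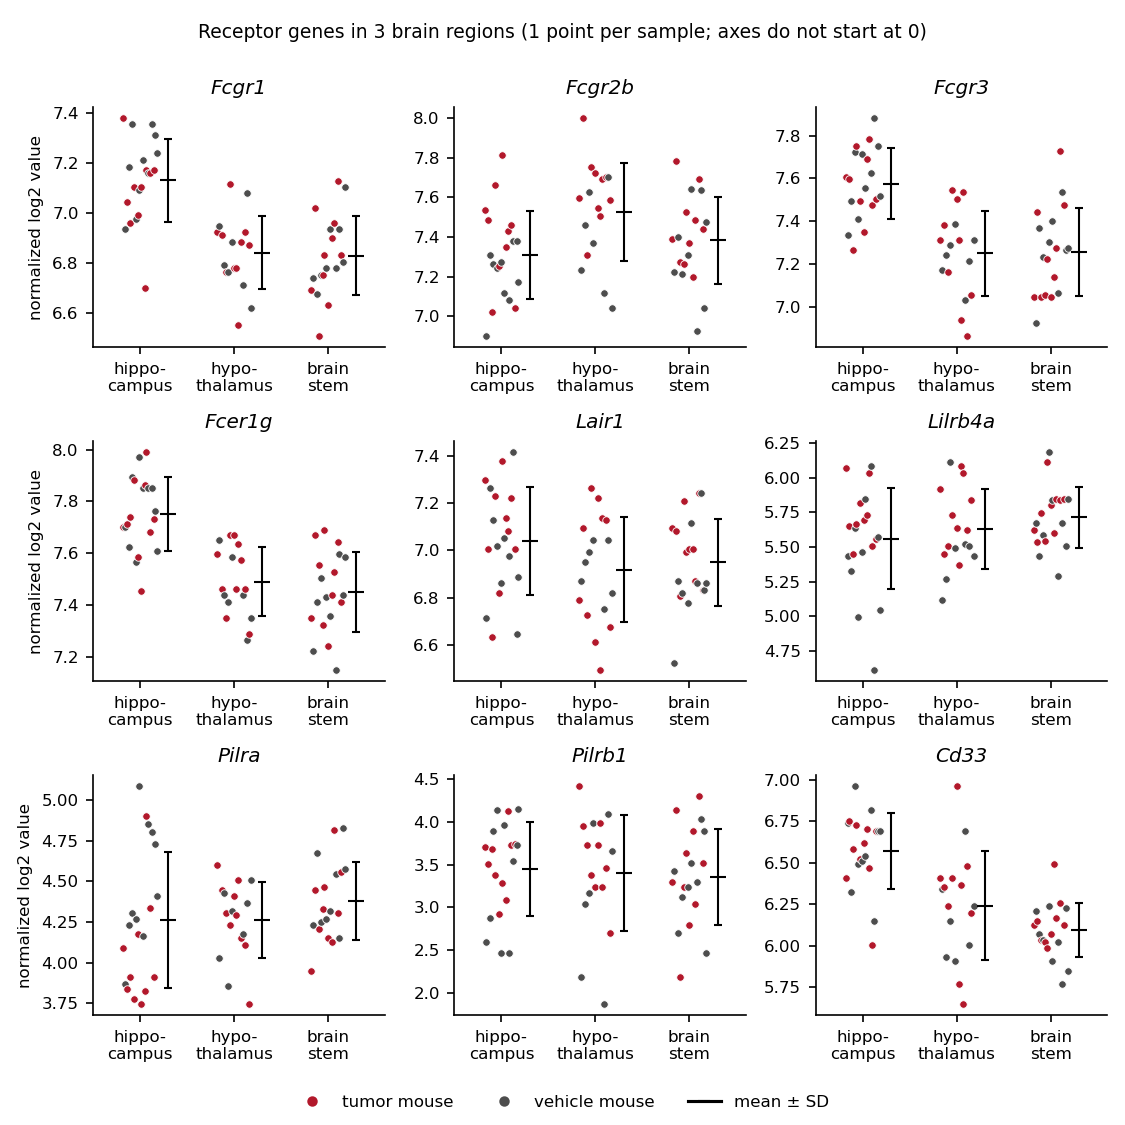
Normalized log2 values of the 9 receptor genes in every sample (y axis) by region (x axis), with tumor mice in red, vehicle mice in grey, and the mean ± SD beside the points. Fcgr1, Fcgr3, Fcer1g and Cd33 had their highest means in hippocampus, Fcgr2b had its highest mean in hypothalamus, and Lilrb4a, Pilra and Pilrb1 overlapped almost completely between regions.

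In the limma fit of all 12 groups with the mouse as a random block, 6 of 9 members differed between hippocampus and hypothalamus at an adjusted p under 0.05, beside 71.7% of all genes. Of these, 5 (Fcgr1, 0.28; Fcgr3, 0.33; Fcer1g, 0.27; Lair1, 0.12; Cd33, 0.35 on the log2 scale) were higher in hippocampus and Fcgr2b was lower by 0.20. The Lair1 call was lost when any one of mice 1, 4, 13, 22 and 28 was left out, and without the mouse as a block (limma adjusted p = 0.0528). Between hippocampus and brain stem 4 of 9 differed, beside 76.6% of all genes, and these were Fcgr1 (0.30), Fcgr3 (0.31), Fcer1g (0.30) and Cd33 (0.49), all higher in hippocampus. Between hypothalamus and brain stem only Fcgr2b differed (0.12, limma adjusted p = 0.0475), beside 66.5% of all genes, and this call was lost without the mouse as a block (limma adjusted p = 0.0682) and when any one of mice 1, 4, 6, 7, 9, 13, 19, 22, 28, 29 and 32 was left out (adjusted p = 0.0536 to 0.121). The share of members called was near that of the panel in the first contrast and below it in the others, and Lilrb4a, Pilra and Pilrb1 were called in none.

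The microglia marker list moved with these regional differences. The mean log2 value of its 7 genes was highest in hippocampus (9.45 ± 0.10), then came hypothalamus (9.14 ± 0.06) and brain stem (9.08 ± 0.11), and 6 of 7 were higher in hippocampus than in hypothalamus. The summed level of the list ran from 12.2 to 12.6 in hippocampus and from 12.0 to 12.2 in hypothalamus, and no marker was near the floor of the assay. When the mean of these markers was subtracted from every gene, which moved the median of all genes by -0.31 between hippocampus and hypothalamus and by -0.37 between hippocampus and brain stem, Fcgr1 differed by -0.02, Fcgr3 by 0.02, Fcer1g by -0.04 and Cd33 by 0.04 between hippocampus and hypothalamus, none of which passed an adjusted p under 0.05. Lair1 then turned to lower in hippocampus (-0.19, limma adjusted p = 7.14e-04) and Fcgr2b was lower by 0.51, beside a median of all genes of -0.36 on that scale, so that Lair1 lay above the median gene and Fcgr2b below it.

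Time of day gave the largest number of calls among the members outside the regional contrasts. Over the 3 regions together, Lair1 and Fcgr2b were higher at mid-dark than at mid-light, by 1.19- and 1.17-fold, and Cd33 was lower at mid-dark by 1.17-fold. These 3 of 9 members passed an adjusted p under 0.05 in limma, beside 13.5% of all genes. The median difference of the 9 members was 0.10 on the log2 scale and that of all genes 0.01.

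Lair1, the inhibitory collagen receptor, was higher at mid-dark in each region. In hippocampus its lowest, median and highest log2 values were 6.89, 7.15 and 7.42 at mid-dark (n = 10) and 6.63, 6.92 and 7.30 at mid-light (n = 10). In hypothalamus they were 6.95, 7.11 and 7.27 (n = 8) against 6.49, 6.75 and 6.99 (n = 9), and in brain stem 6.86, 7.08 and 7.24 (n = 9) against 6.52, 6.83 and 7.09 (n = 10). The ranges overlapped in every region, by a narrow margin in hypothalamus. The difference over the regions was 0.25 (SE 0.05, limma adjusted p = 1.14e-04), and when each mouse was reduced to its mean over regions, 10 of 10 mid-dark mice lay above the median of the mid-light mice and 4 of 10 above all of them. By region the difference was 0.33 in hypothalamus (limma adjusted p = 9.15e-04), 0.23 in hippocampus (unadjusted p = 0.0182, limma adjusted p = 0.167) and 0.20 in brain stem (unadjusted p = 0.00964, limma adjusted p = 0.128). The hypothalamus means at mid-dark and mid-light were 7.17 and 6.66 in tumor mice, and 7.01 and 6.86 in vehicle mice.

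Fcgr2b, the inhibitory Fc receptor, moved the same way. Its lowest, median and highest values were 7.12, 7.41 and 7.81 at mid-dark against 6.90, 7.26 and 7.53 at mid-light in hippocampus, and 7.37, 7.70 and 8.00 against 7.04, 7.504 and 7.72 in hypothalamus. In brain stem they were 7.27, 7.48 and 7.78 against 6.92, 7.25 and 7.53. The medians were higher at mid-dark in all regions, and the ranges overlapped in all. Mean values at mid-dark and mid-light were 7.24 and 7.18 in hippocampus of vehicle mice, and 7.57 and 7.24 in tumor mice. In hypothalamus they were 7.51 and 7.25 in vehicle mice and 7.74 and 7.54 in tumor mice. In brain stem they were 7.54 and 7.14 in vehicle mice and 7.52 and 7.37 in tumor mice. The difference over the regions was 0.23 (SE 0.05, limma adjusted p = 0.00148), with 9 of 10 mid-dark mice above the mid-light median and 6 of 10 above every mid-light mouse. Brain stem gave 0.27 (limma adjusted p = 0.0384), which became 0.19 (adjusted p = 0.258) without the samples of low absorbance ratio, hypothalamus gave 0.23 (unadjusted p = 0.0250, limma adjusted p = 0.291) and hippocampus 0.20 (unadjusted p = 0.0189, limma adjusted p = 0.167).

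Cd33, the Siglec, ran the other way. Its lowest, median and highest values were 6.01, 6.52 and 6.75 at mid-dark against 6.41, 6.69 and 6.96 at mid-light in hippocampus, and 5.65, 5.97 and 6.48 against 6.15, 6.34 and 6.96 in hypothalamus. In brain stem they were 5.77, 6.07 and 6.26 against 5.99, 6.12 and 6.49. Reduced to a value per mouse, 8 of 10 mid-dark mice lay below the lowest mid-light mouse. The share of all genes that separated this far was not counted, here or for other members. Mean values at mid-dark and mid-light were 6.44 and 6.74 in hippocampus of vehicle mice, and 6.52 and 6.58 in tumor mice. In brain stem they were 5.90 and 6.15 in vehicle mice and 6.13 and 6.15 in tumor mice. In hypothalamus they were 5.95 and 6.36 in vehicle mice and 6.13 and 6.43 in tumor mice. The difference over the regions was -0.22 (SE 0.07, limma adjusted p = 0.0224), and the adjusted p was 0.0555 without mouse 28, a vehicle mouse taken at mid-dark. By region the difference was -0.35 in hypothalamus (unadjusted p = 0.0230, limma adjusted p = 0.291), -0.18 in hippocampus and -0.13 in brain stem.

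**Figure D2:**
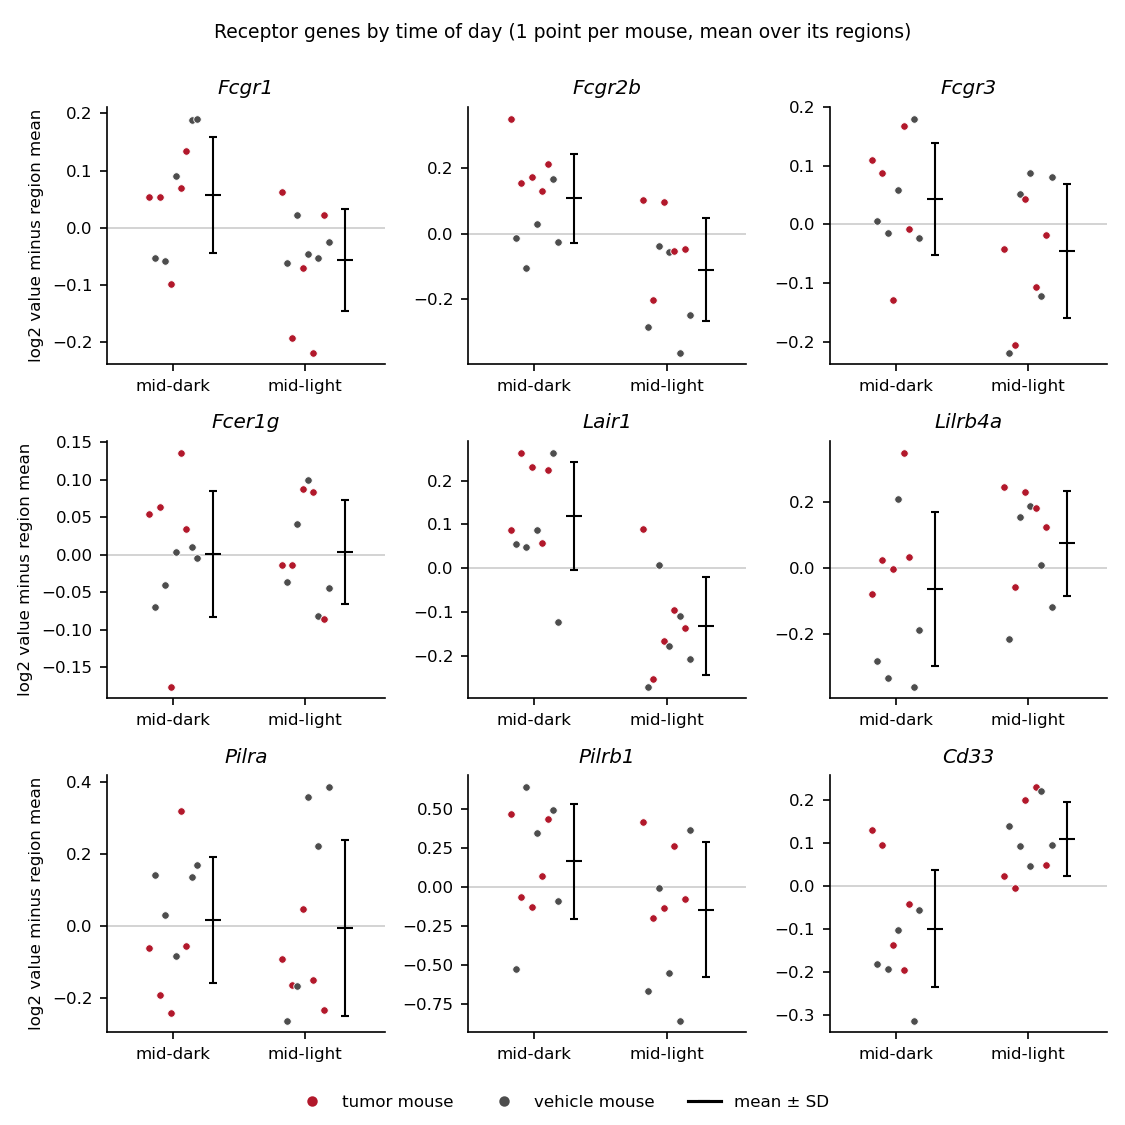
Level of each receptor gene per mouse (y axis, log2 value minus the region mean, averaged over the regions of the mouse) at mid-dark and mid-light (x axis, 10 mice each), with tumor mice in red, vehicle mice in grey and the mean ± SD of each time beside the points. Lair1 and Fcgr2b sat higher at mid-dark, Cd33 sat lower, and the means of Fcer1g at both times lay close together.

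No other member was called. Fcgr1 differed by 0.12 (95% interval 0.02 to 0.21, limma adjusted p = 0.0959) and Fcgr3 by 0.10 (adjusted p = 0.324), both towards mid-dark. The 95% interval of Fcer1g ran from -0.09 to 0.09, so that a difference of the size seen in Lair1 or Fcgr2b lay outside it. Lilrb4a (-0.13, limma adjusted p = 0.363), Pilra (0.04, adjusted p = 0.836) and Pilrb1 (0.31, adjusted p = 0.268) were not called. Counted by region, 8 of 27 member comparisons had an unadjusted p under 0.05, beside 15.9% of all genes, 7 of them higher and 1 lower at mid-dark, and 2 of 27 had an adjusted p under 0.05, beside 4.29%. Beyond Lair1, Fcgr2b and Cd33, the remaining one was Fcgr1 in hypothalamus (0.15, unadjusted p = 0.0423, limma adjusted p = 0.340).

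Over the 3 regions together, the microglia markers did not move with time of day as a list. Their median difference between mid-dark and mid-light was -0.02, 1 of 7 was called, and none of the 5 markers of border macrophages and monocytes was called (median -0.04). In hippocampus the microglia mean was lower at mid-dark in vehicle mice (9.42 ± 0.08 against 9.55 ± 0.07) but not in tumor mice (9.43 ± 0.12 against 9.39 ± 0.01). With the microglia mean subtracted, Lair1 and Fcgr2b were still called over the 3 regions and Cd33 differed by -0.21 (limma adjusted p = 0.0520). Myelin genes moved with time of day as well, with 2 of 4 lower at mid-dark (median -0.21), and their part in the Cd33 difference was not tested.

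Fewer members were called between tumor and vehicle than between times of day. Over the 3 regions together, Fcgr2b was the only member with an adjusted p under 0.05, 1.14-fold higher in tumor mice (0.18, SE 0.05, limma adjusted p = 0.0442). That made 1 of 9 members, beside 2.34% of all genes. Reduced to a value per mouse, 7 of 10 tumor mice lay above the vehicle median and 3 of 10 above every vehicle mouse. The call was a narrow one, since the adjusted p was over 0.05 when any one of mice 1, 2, 3, 4, 7, 8, 9, 12, 13, 22, 23, 30 and 32 was left out (differences of 0.16 to 0.19), and it was 0.234 (difference 0.14) without the samples of low absorbance ratio.

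Among the remaining members, Lilrb4a gave 0.20 (SE 0.08, unadjusted p = 0.0193, limma adjusted p = 0.311), and 10 of 10 tumor mice lay above the vehicle median. Pilra gave -0.16 (limma adjusted p = 0.550), and 9 of 10 tumor mice lay below the vehicle median. Lair1 gave 0.06 (adjusted p = 0.696) and Cd33 0.07 (adjusted p = 0.842). Fcgr1 gave -0.04 (95% interval -0.13 to 0.06), Fcgr3 -0.02 (-0.14 to 0.10) and Fcer1g 0.03 (-0.06 to 0.12), and Pilrb1 had the largest value of the 9 with the widest interval (0.21, -0.13 to 0.55). The Fcgr3 value in brain stem depended on whether the samples of low absorbance ratio were kept. With both times of day together it was -0.03, and without the samples of low absorbance ratio it was -0.23 (unadjusted p = 0.00221, limma adjusted p = 0.15). At mid-dark it went from -0.09 to -0.35 (unadjusted p = 0.00232, limma adjusted p = 0.314). The tumor values left out at mid-dark were 7.28, 7.44 and 7.73, and those that stayed were only 7.04 and 7.05. The part of RNA purity itself in this change was not tested. The members had a median of 0.06 and all genes of -0.01.

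By region and time of day, 9 of 54 member comparisons had an unadjusted p under 0.05, beside 5.94% of all genes, 7 of them higher and 2 lower in tumor mice. None of 54 had an adjusted p under 0.05 in limma, beside 0.217% of all genes. Fcgr2b accounted for 3 of the 9, and Lair1 for another 2, both in hypothalamus.

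**Figure D3:**
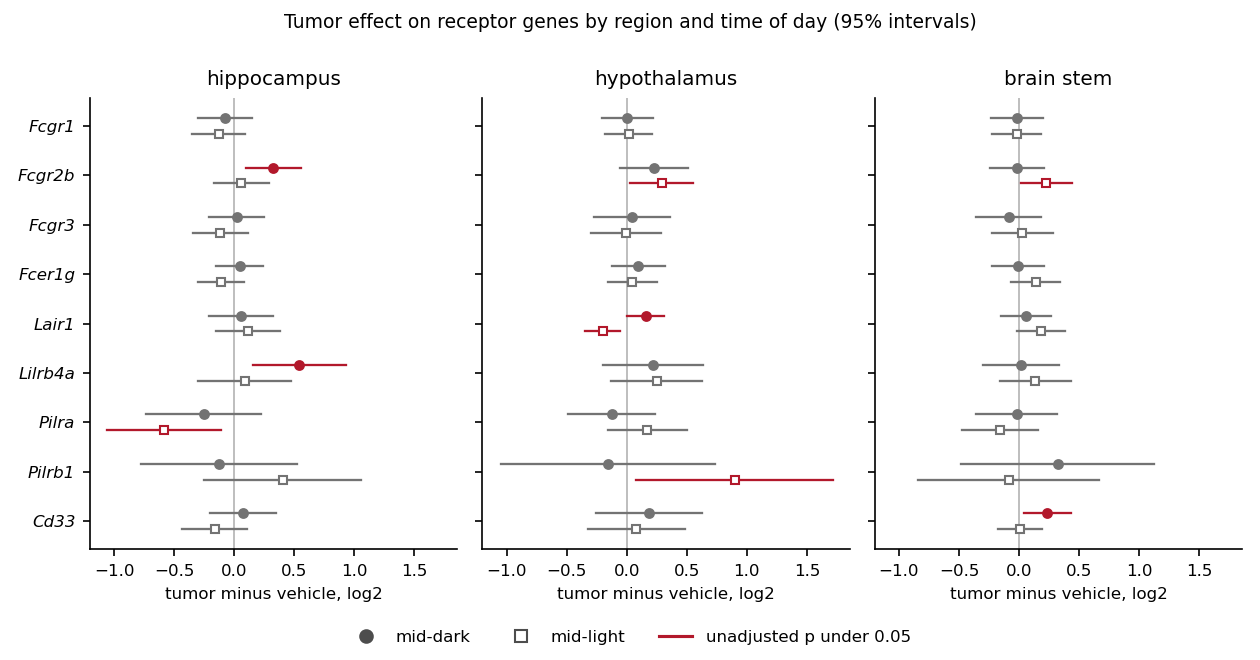
Tumor minus vehicle difference (x axis, log2, with 95% intervals) of the 9 receptor genes (y axis) in each region, at mid-dark (filled circles) and mid-light (open squares), with differences at an unadjusted p under 0.05 in red. The red intervals belong to 9 of 54 comparisons, and Lair1 in hypothalamus is the gene whose red intervals lie on both sides of 0.

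For Fcgr2b in hippocampus at mid-dark the groups did not overlap. Tumor mice had values of 7.43, 7.46, 7.48, 7.66 and 7.81, and vehicle mice of 7.12, 7.17, 7.24, 7.31 and 7.38, so that every tumor mouse lay above every vehicle mouse (difference 0.32, SE 0.11, unadjusted p = 0.00744, limma adjusted p = 0.541). The share of all genes whose groups separated in this way was not counted, so the separation is a description only. At mid-light in the same region the tumor values ran from 7.02 to 7.53 and the vehicle values from 6.90 to 7.38, and the groups overlapped. In hypothalamus at mid-light the tumor values were 7.31, 7.504, 7.59, 7.60 and 7.72 and the vehicle values 7.04, 7.12, 7.23 and 7.63 (difference 0.29, unadjusted p = 0.0318, limma adjusted p = 0.907), with 1 vehicle mouse inside the tumor range. In brain stem at mid-light the tumor values were 7.20, 7.28, 7.39, 7.44 and 7.53 and the vehicle values 6.92, 7.04, 7.21, 7.22 and 7.31 (difference 0.22, unadjusted p = 0.04, limma adjusted p = 0.932), which overlapped.

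Lilrb4a in hippocampus at mid-dark was at 5.51, 5.65, 5.67, 5.69 and 6.03 in tumor mice and at 4.61, 5.00, 5.05, 5.32 and 5.85 in vehicle mice (difference 0.54, SE 0.18, unadjusted p = 0.00860, limma adjusted p = 0.541). Of the vehicle values, 4 lay below every tumor value and the remaining one lay above all tumor values but the highest. That value, 5.85, belonged to the 1 hippocampus sample with an absorbance ratio under 1.8, and without it the difference was 0.71 (unadjusted p = 3.14e-04, limma adjusted p = 0.0712).

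Pilra in hippocampus at mid-light was at 3.83, 3.91, 3.91, 4.09 and 4.18 in tumor mice and at 3.87, 4.31, 4.73, 4.85 and 5.09 in vehicle mice (difference -0.59, SE 0.23, unadjusted p = 0.0183, limma adjusted p = 0.502), with 1 vehicle mouse inside the tumor range. The microglia markers moved the same way in these samples, with a summed level of 12.30 to 12.35 in tumor and of 12.39 to 12.54 in vehicle mice, and their part in the Pilra difference was not tested beyond the subtraction of their mean, which left -0.42 (unadjusted p = 0.0562). Pilrb1 in hypothalamus at mid-light was at 2.70, 3.23, 3.73, 4.00 and 4.42 in tumor mice and at 1.87, 2.19, 3.17 and 3.66 in vehicle mice (difference 0.90, SE 0.38, unadjusted p = 0.0333, limma adjusted p = 0.907), which overlapped. The value of 4.42 came from the tumor sample with a second absorbance ratio of 0.44, and the part of that ratio was not tested. The differences of Pilra and Pilrb1 were those of genes with low values, whose means over all samples were 4.30 and 3.40.

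Cd33 in brain stem at mid-dark was at 6.02, 6.07, 6.15, 6.17 and 6.26 in tumor mice and at 5.77, 5.85, 5.91 and 6.07 in vehicle mice (difference 0.23, SE 0.09, unadjusted p = 0.0218, limma adjusted p = 0.595). In 3 of these 5 tumor samples the absorbance ratio was under 1.8, and without them the difference was 0.15 (unadjusted p = 0.292). With both times of day together, 4 of 27 member comparisons by region had an unadjusted p under 0.05, beside 6.67% of all genes, and 0 of 27 an adjusted p under 0.05 in limma, beside 0.607%. They were Fcgr2b in hippocampus (0.19) and hypothalamus (0.26), Lilrb4a in hippocampus (0.31) and Pilra in hippocampus (-0.42).

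Lair1 in hypothalamus was higher in tumor mice at mid-dark and lower in tumor mice at mid-light, by differences that did not pass adjustment over the panel. At mid-dark the tumor mice had values of 7.09, 7.13, 7.14, 7.22 and 7.27 and the vehicle mice of 6.95, 7.04 and 7.04, so that all tumor mice lay above all vehicle mice (difference 0.16, SE 0.07, unadjusted p = 0.0480, limma adjusted p = 0.98). With so few vehicle mice, and the share of all genes that separated not counted, this too is a description only. At mid-light the tumor mice had values of 6.49, 6.61, 6.67, 6.73 and 6.79 and the vehicle mice of 6.75, 6.82, 6.87 and 6.99, so that 4 of 5 tumor mice lay below all vehicle mice (difference -0.20, SE 0.07, unadjusted p = 0.00931, limma adjusted p = 0.617). The group means thus spanned 6.66 ± 0.11 to 7.17 ± 0.07 in tumor mice and 6.86 ± 0.10 to 7.01 ± 0.05 in vehicle mice between mid-light and mid-dark. The highest tumor values, 7.27 at mid-dark and 6.79 at mid-light, came from the samples with a second absorbance ratio of 1.14 and 0.44. The part of that ratio was not tested. The interaction was 0.36 (SE 0.10, 95% interval 0.15 to 0.57, unadjusted p = 0.00260), and its adjusted p over the panel was 1.00. With all samples kept, it was the 1 of 27 member interactions by region with an unadjusted p under 0.05, beside 4.12% of all genes. After adjustment 0 of 27 passed, beside 0% of all genes.

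**Figure D4:**
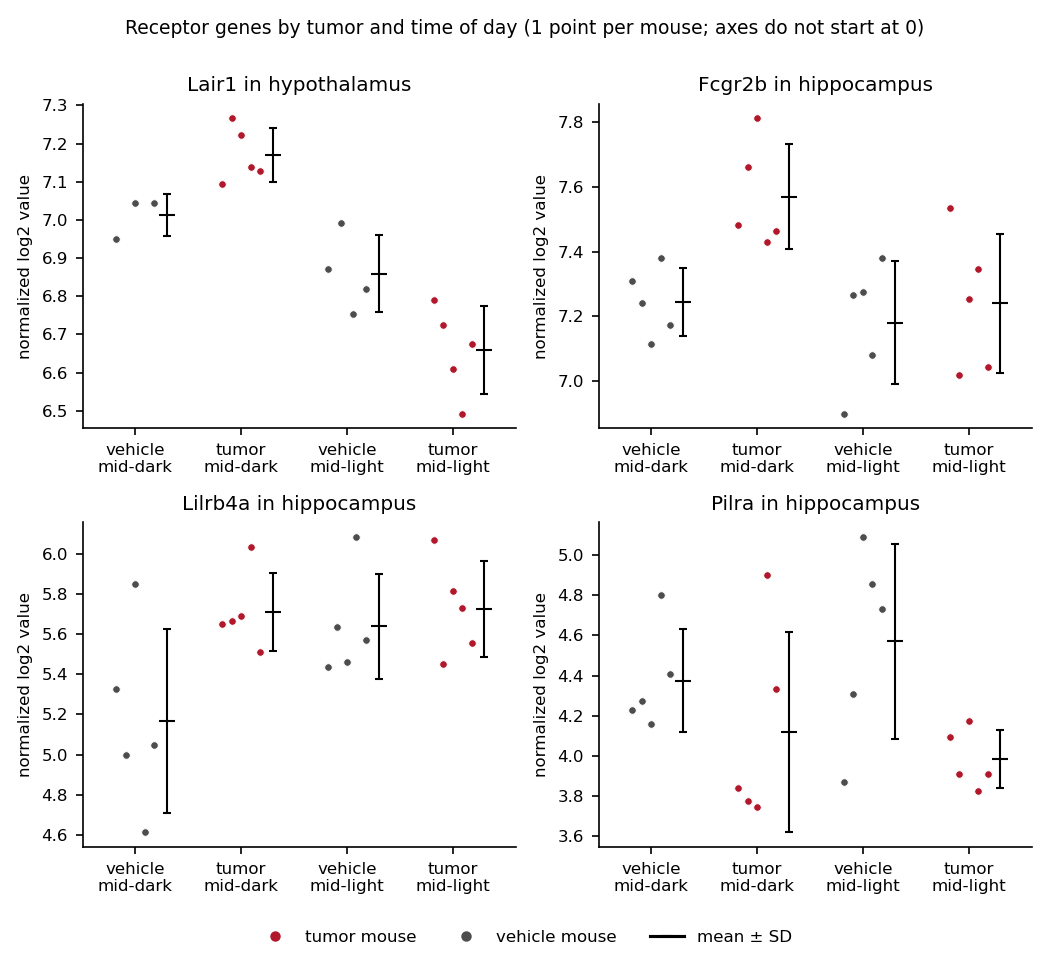
Normalized log2 values (y axis) of Lair1 in hypothalamus and of Fcgr2b, Lilrb4a and Pilra in hippocampus, per mouse, in the 4 groups of tumor and time of day (x axis), with the mean ± SD beside the points. Lair1 in tumor mice runs from 6.49 to 6.79 at mid-light and from 7.09 to 7.27 at mid-dark, a wider span than that of vehicle mice, and Fcgr2b tumor mice at mid-dark lie above all vehicle mice taken at that time.

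In hippocampus and brain stem the Lair1 interaction was -0.06 (95% interval -0.44 to 0.32) and -0.12 (-0.41 to 0.16). Over the 3 regions together no member had an interaction at an adjusted p under 0.05 in limma, beside 0.13% of all genes, and 0 of 9 had an unadjusted p under 0.05, beside 5.71%. The microglia markers of hypothalamus did not separate these groups, with mean log2 values of 9.11 to 9.16 in all 4, and with their mean subtracted the Lair1 interaction was 0.30 (unadjusted p = 0.0183), while the differences within mid-dark (0.14, unadjusted p = 0.113) and mid-light (-0.16, unadjusted p = 0.0557) no longer had a p under 0.05.

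The tumor effect was also compared between regions. The difference between hippocampus and hypothalamus reached an unadjusted p under 0.05 in 1 of 9 members, beside 5.32% of all genes, which was Pilra (-0.44, SE 0.18, unadjusted p = 0.0206, limma adjusted p = 0.729), with a tumor effect of -0.42 in hippocampus and 0.02 in hypothalamus. It was reached by 0 of 9 members between hippocampus and brain stem, beside 2.21%, and by 0 of 9 between hypothalamus and brain stem, beside 2.34%. Without the samples of low absorbance ratio, Fcgr2b (0.25, unadjusted p = 0.0403) and Fcgr3 (0.25, unadjusted p = 0.0484) reached it in that last comparison, both with a limma adjusted p of 0.990. No member and 0% of all genes passed after adjustment in any of these 3 comparisons. The tumor effects on Fcgr2b (hippocampus 0.19, hypothalamus 0.26, brain stem 0.10, and 0.00256 in brain stem without those samples) were not shown to differ after adjustment.

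Among the signalling partners and relatives of these receptors, 2 genes were called with time of day and none with tumor. In these comparisons 13.5% and 2.34% of all genes were called, and 197 and 73 of 770 genes had an unadjusted p under 0.05. Of 17 relatives on the panel among Fc and Ig-like receptors, Igsf6 alone was called between mid-dark and mid-light (0.32, limma adjusted p = 0.0168), and 0 of 17 with tumor (2 at an unadjusted p under 0.05), where Kir3dl1 (0.58, adjusted p = 0.354) and the microglial Fc receptor-like gene Fcrls (-0.11, adjusted p = 0.521) had the smallest p in each direction. Slamf9 had the smallest p among relatives lower at mid-dark (-0.19, limma adjusted p = 0.0514) and for the interaction (0.43, adjusted p = 0.377). Of 13 genes of the ITAM pathway, among them the adaptor Tyrobp and the kinases Syk, Lyn and Btk, 0 were called with tumor and 0 with time of day, beside 1 and 3 at an unadjusted p under 0.05. The kinase subunit Pik3cb (0.08, limma adjusted p = 0.0630) and Lyn (-0.08, adjusted p = 0.552) had the smallest p in each direction for time of day, and Pik3r1 (0.04, adjusted p = 0.679) and the adaptor Blnk (-0.17, adjusted p = 0.396) for tumor.

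Of 5 ITIM phosphatases and brakes, 0 were called in either comparison in limma, beside 0 for tumor and 1 for time of day at an unadjusted p under 0.05. Ptpn6, the phosphatase SHP-1 that ITIM receptors recruit, gave 0.15 between mid-dark and mid-light (unadjusted p = 0.0212, limma adjusted p = 0.106), and Socs3 (0.12) and Csk (-0.05) had the smallest p in each direction for tumor. Among 8 reported ligands, Col6a3, a chain of type VI collagen, was lower at mid-dark (-0.31, limma adjusted p = 0.0207), while the ligand genes with the smallest p for tumor were C1qc (0.10, adjusted p = 0.470) and Ptx3 (-0.17, adjusted p = 0.540). By region, 11 of 13 genes of the ITAM list were higher and 2 lower in hippocampus than in brain stem, where 76.6% of all genes were called (median 0.38, all genes -0.03). The mean of the microglia markers stood at 9.45 against 9.08 in these regions, and its part in the ITAM list's difference was not tested.

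Across the 56 samples, with the mean of each region subtracted, the members were loosely related. The median Pearson r over 36 pairs of members was 0.18, and 6 pairs had an r over 0.4. Fcer1g and Fcgr3, a signalling chain and its receptor, had the highest (0.57), then Fcgr2b and Lair1 (0.53), while Lair1 and Cd33 had the lowest (-0.40). These values describe samples that share mice and groups. Differences between times of day and between tumor and vehicle were not removed, and their part in each r was not tested.

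**Figure D5:**
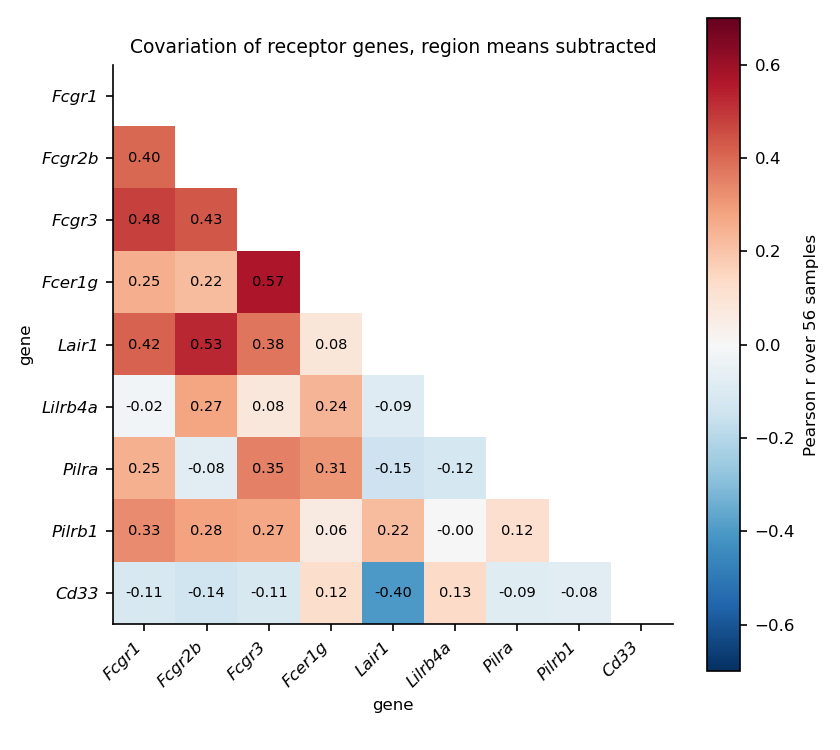
Pearson correlation of the 9 receptor genes over 56 samples with region means subtracted (both axes list the genes, colour and number give r). Fcgr1, Fcgr2b, Fcgr3 and Lair1 correlate with each other at 0.38 to 0.53, and Cd33 correlates with Lair1 at -0.40.

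The genes most like each member on the panel were of different kinds. Fcer1g went with Tyrobp (r = 0.61), the adaptor of other microglial receptors, and with the complement gene C1qb (0.58). Fcgr3 went with the microglial genes Gpr34 (0.60) and Tmem119 (0.58), and Fcgr1 with Tmem100 (0.65), Gpr34 (0.59) and Vamp7 (0.55). Fcgr2b went with Atg3 (0.56), Cd163 (0.55), a marker of border macrophages, and Tbp (0.53), and Lair1 with Tmc7 (0.59), Stx18 (0.59) and Irf3 (0.58). Lilrb4a was most like Pros1 (0.55), F3 (0.53) and Srgn (0.51), Pilra most like Was (0.47), Tlr4 (0.41) and Irf8 (0.39), Pilrb1 most like Kdm3a (0.45), and Cd33 most like Egr1 (0.43), the oligodendrocyte gene Opalin (0.42) and Lars (0.41). With the mean of the microglia markers the r was 0.57 for Fcer1g, 0.52 for Fcgr3, 0.41 for Fcgr1 and 0.35 for Pilra. It was 0.09 for Lair1 and 0.03 for Fcgr2b, the genes called higher at mid-dark. Low values were also seen in members not called higher at mid-dark, with 0.12 for Cd33, 0.10 for Lilrb4a and -0.06 for Pilrb1.

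Markers of immune cell types that can carry these receptors gave no call with tumor, where 2.34% of all genes were called. In that comparison 0 of 7 microglia markers, 0 of 5 markers of border macrophages and monocytes (median 0.10), 0 of 3 neutrophil, 0 of 6 B cell, 0 of 7 T and NK cell and 0 of 3 mast cell markers were called in limma, and 1 of them all, a mast cell marker, had an unadjusted p under 0.05. Of 8 endothelial markers 1 was higher and 1 lower with tumor, and 1 was higher and 1 lower at mid-dark. The summed level of the border macrophage list ran from 6.77 to 7.82 in hypothalamus, 7.10 to 7.76 in hippocampus and 7.08 to 7.74 in brain stem, and all B cell and neutrophil markers had means under 5 in every region. The part of these cells in the Fcgr2b difference between tumor and vehicle was not tested.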

How the data were processed

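RNA of hippocampus, hypothalamus and brain stem was assayed by the authors on the nanoString nCounter Mouse Neuroinflammation Panel. According to the study's methods, nSolver subtracted the negative background and applied positive control and codeset normalization, and Partek applied quantile normalization. The deposited values are log2 expression of 770 genes in 56 samples, with one blank row left out. Depth as read counts was not given, so no counting interval was computed, and quantile normalization sets all samples to nearly one distribution, which hides a change in total RNA.

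Values were fitted in limma (version 3.58.1, R version 4.3.3). For contrasts over 3 regions, the 12 groups of region, tumor and time of day entered a single linear model with the mouse as a random block (consensus correlation 0.136). For contrasts within a region, a model of its 4 groups was used. Moderated p-values were adjusted by Benjamini-Hochberg over all genes, with a threshold of 0.05, and no gene was filtered out. The study's methods name Student's test between classes and an ANOVA of tumor against vehicle mice, filtered at p under 0.05, by fold change, or by both. The genes called were then pooled over regions. None of these steps was repeated here. Samples with the same mouse number came from one animal, and their deviations from the group means correlated between regions with a mean r of 0.0881 (lowest -0.0240, highest 0.240, over 0 in 17 of 20 mice).

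The members and gene lists were chosen with earlier results of these data known. Named list genes were those called at the adjusted threshold, or with the smallest p in each direction. One result on the genes most like a member is not reported here. The fits were tested on simulated data with 200 changed genes. Promoter windows came from RefSeq, build GRCm38.p6, and figures were drawn with matplotlib (version 3.10.9).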

Additional observations from a re-analysis of the deposited data

Results flagged for a closer look

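In 3 of 99 groups of 4 or 5 samples, the highest or lowest value of a member lay apart from the rest by Dixon's criterion at 95%, which chance alone meets in about 1 of 20 groups. Lair1 in brain stem of vehicle mouse 2 at mid-light was 6.52, and the nearest of the other 4 mice was at 6.78. The absorbance ratio of that sample of mouse 2 was 1.72, under the limit of 1.8. Cd33 in hypothalamus of tumor mouse 9 at mid-light was 6.96, and the nearest was at 6.41. Cd33 in brain stem of tumor mouse 13 at mid-light was 6.49, and the nearest was at 6.12. Each of these values enters the mid-light side of a difference between times of day.

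With all samples kept, the effect of tumor differed between groups at an unadjusted p under 0.05 in 2 comparisons. The tumor effect on Pilra, a gene with low values (mean 4.30), in hippocampus minus that in hypothalamus was -0.44 (limma adjusted p = 0.729). The interaction of tumor and time of day for Lair1 in hypothalamus was 0.36 (limma adjusted p = 1.00). Neither passed adjustment over the panel.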

How the results depend on the processing

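Lair1 and Fcgr2b kept their direction and their side of the threshold between mid-dark and mid-light over the 3 regions in every alternative run. Over 20 fits that each left out a mouse, the number of members called ranged from 0 to 1 for tumor, 2 to 4 for time of day, 0 to 1 between hypothalamus and brain stem, and 1 to 3 for interactions by region at an unadjusted p, and the genes of the pathway lists called ranged from 1 to 6. The members called for tumor went from 1 to 0 without the samples of absorbance ratio under 1.8, an alternative chosen after seeing the data, which also gave 3 member interactions by region in place of 1 and 1 pathway list call in place of 2. The added interactions were Fcgr2b in brain stem (-0.44, unadjusted p = 0.0148, limma adjusted p = 0.963) and Lilrb4a in hippocampus (0.63, unadjusted p = 0.0105, limma adjusted p = 0.528). Without the replicate block the pathway lists gave 6 calls. Fcgr2b between hypothalamus and brain stem was the member called there, and the count was 0 with no replicate block (adjusted p = 0.0682), with the mouse as a fixed replicate block (adjusted p = 0.0512) and with the microglia mean subtracted (0.06, adjusted p = 0.394). That subtraction turned the sign of several regional differences, among which were -0.0229 for Fcgr1, -0.0392 for Fcer1g and -0.19 for Lair1 in hippocampus minus hypothalamus, and -0.0720 for Fcgr1, -0.0562 for Fcgr3, -0.0717 for Fcer1g and -0.28 for Lair1 in hippocampus minus brain stem. The cause of these changes was not tested, apart from the subtraction itself, which moves all genes. Groups of 3 to 5 mice limit the precision.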
